A study of Mus musculus with 4 samples.

Results

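Hox genes encode transcription factors with a homeodomain, and in the mouse they stand side by side in 4 clusters, Hoxa, Hoxb, Hoxc and Hoxd. The genes were chosen by symbol from a RefSeq table of the mouse assembly GRCm38.p6 (mm10): protein-coding genes named Hoxa, Hoxb, Hoxc or Hoxd followed by a number, which gave 39 of the 21779 protein-coding genes used here. Hoxa has 11 of them, Hoxb 10, Hoxc 9 and Hoxd 9. Their values are the positions and heights of Runx3 peaks within 1 kb of either end of each gene, inside each cluster and in the 50 kb on each side of it.

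Runx3, a transcription factor of the RUNX family needed for CD8 T cells, was mapped in CD8 T cells of the spleens of adult wild type mice, isolated with beads against CD8a. The ChIP group is 1 library of chromatin from 50000000 frozen cells pooled from 5 mice, sonicated and pulled down with rabbit serum raised to Runx3, diluted 1 in 200. The CUT&RUN group is 1 library of 150000 fresh cells from 1 mouse with the same serum, a method in which the antibody directs a nuclease that cuts out nearby DNA. A whole cell extract library served as the control of the ChIP peaks, and a CUT&RUN library with normal rabbit serum was not analysed here. With 1 library per assay there is no replicate check and no test. The assay, the cell number, freezing, the mice and the peak calling all differ between the groups, and their parts in a difference cannot be told apart.

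Hox genes set positional identity along the body axis of the embryo, and their order along a cluster follows the order in which they are expressed. In cells where they are silent, a cluster is usually covered by Polycomb complexes, which place and bind repressive histone marks, while Trithorax proteins such as Kmt2a keep active Hox genes on. In blood, Hoxa and Hoxb genes are best known in stem and progenitor cells and are turned down as cells mature. RUNX proteins bind the DNA letters TGTGGT or TGCGGT together with the partner Cbfb.

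The ChIP list held 13166 peaks from 9532996 fragments left after duplicate removal, and the CUT&RUN list held 15891 peaks from 14068364. The lowest pileup in a list, that is the number of fragments over a peak's summit, was 7 in ChIP and 8 in CUT&RUN, and the medians were 12 and 25. A region with no peak is therefore a region in which signal did not reach these callers' thresholds, and weaker binding was not detectable at this depth. As a check of the labelled cell type, all 9 CD8 T cell marker genes had a summit within 10 kb in ChIP and in CUT&RUN, against 40.4% and 45.3% of all protein-coding genes, while 0 of 4 erythroid and 0 of 4 progenitor markers did in either. Of 4 B cell markers 2 had a summit in each assay, and of 4 myeloid markers 0 did in ChIP and 1 in CUT&RUN. The exact 95% Clopper-Pearson interval of 0 of 4 is 0 to 60.2%, which includes the 40.4% and 45.3% of all protein-coding genes. Lists of 4 genes are therefore too short to show fewer summits than among all genes. Peaks do not measure expression, so Hox expression was not measured here.

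No Hox gene had a Runx3 summit at its ends. Within 1 kb of either end, 0 of 39 Hox genes had a ChIP summit, against 23.1% of all protein-coding genes, and 0 of 39 had a CUT&RUN summit, against 27.3% of all protein-coding genes. Both lists had a summit within 1 kb of an end at 18.4% of all protein-coding genes and at 0 Hox genes. A count of 0 among 39, with a floor of 3 counts, allows a share of up to 7.69%, and the upper limit of the exact 95% Clopper-Pearson interval is 9.03%, but the 39 genes are not independent, since they lie in only 4 stretches of DNA. The Hox genes just outside the limit were Hoxa3, with a ChIP summit 1.23 kb from an end, and Hoxd3, with a CUT&RUN summit 1.10 kb from an end.

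Within the gene spans the picture was nearly as bare. A ChIP summit lay inside 1 of 39 Hox genes (Hoxa3), against 22.5% of all protein-coding genes, and a CUT&RUN summit inside 0 of 39, against 24.2%. Counting 10 kb around each gene, 4 of 39 Hox genes had a ChIP summit (10.3%, 95% Clopper-Pearson interval 2.87 to 24.2%), against 40.4% of all protein-coding genes. These were Hoxa3, Hoxa5, Hoxa6 and Hoxa7, and they shared the same summit. In CUT&RUN 1 of 39 did, Hoxd3 (2.56%, interval 0.0649 to 13.5%), against 45.3%.

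Each cluster in turn held at most 1 summit of each list. The Hoxa cluster (chromosome 6, 52155367 to 52260880, 106 kb) had 1 ChIP and 0 CUT&RUN summits. The Hoxb cluster (chromosome 11, 96194316 to 96368254, 174 kb) had 0 and 1. The Hoxc cluster (chromosome 15, 102921131 to 103036856, 116 kb) had none in either list, and the Hoxd cluster (chromosome 2, 74668225 to 74765142, 96.9 kb) had 0 ChIP and 1 CUT&RUN summits. None of these 3 peaks overlapped a peak of the other assay, whereas 66.2% of all ChIP peaks and 58.8% of all CUT&RUN peaks did. Over the 0.492 Mb of the clusters this came to 2.03 ChIP summits per Mb (95% Poisson interval 0.0514 to 11.3), against 4.80 per Mb over the genome, and to 4.06 CUT&RUN summits per Mb (0.492 to 14.7), against 5.77 per Mb over the genome. These intervals include the genome means, so the clusters were not shown to hold fewer summits than the genome as a whole. Their densities, with their intervals, were below the means of gene-rich DNA. The intervals cover counting error only and not the spread from region to region, and the clusters are only 4 regions. Fewer summits than in other gene-rich regions were therefore not shown. In 100 kb bins with at least 5 protein-coding genes there were 20.2 ChIP and 24.8 CUT&RUN summits per Mb, and 72.5% and 76.0% of these 1043 bins held a summit, against 23.5% and 25.3% of all bins. Of the 5 such bins that hold a Hox gene, 3 had no summit of either list, as had 21.3% of all 1043.

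**Figure D1:**
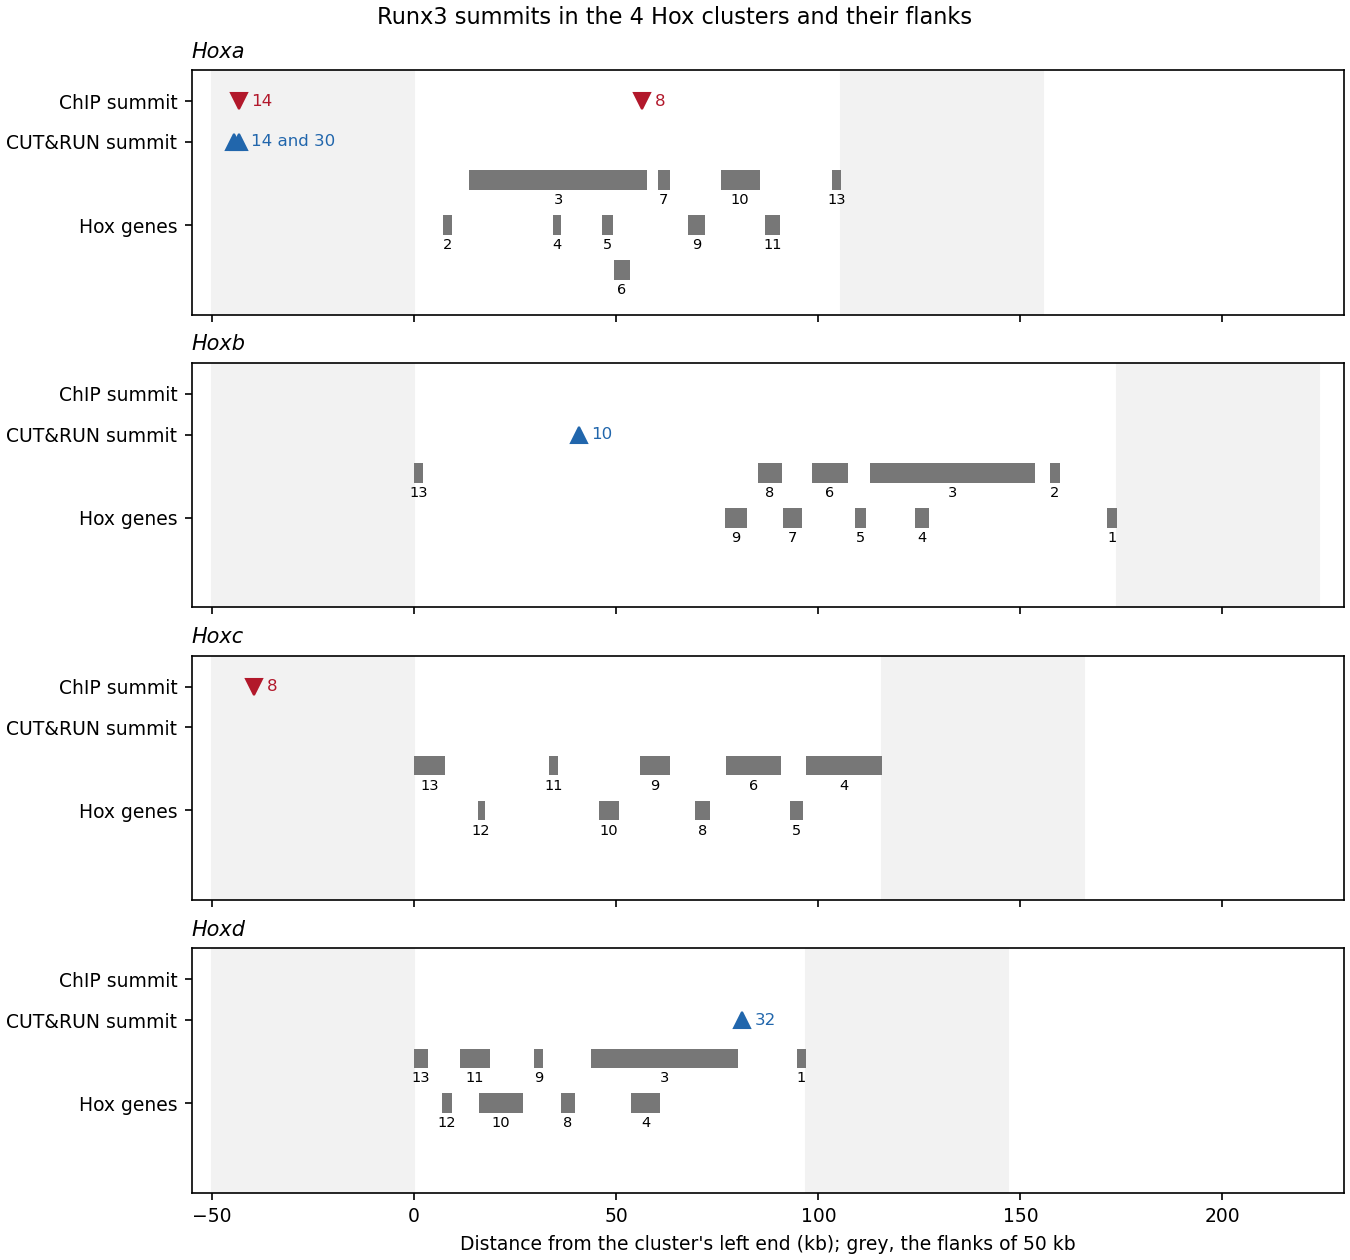
Map of the 4 Hox clusters and their flanks of 50 kb (grey), with Hox genes as bars labelled by their number (not every gene is drawn), ChIP summits as red triangles and CUT&RUN summits as blue triangles, each with its pileup in fragments. The x axis is the distance in kb from the cluster's end with the lowest coordinate. The only summits inside a cluster are a ChIP summit of pileup 8 in Hoxa and CUT&RUN summits of pileup 10 in Hoxb and 32 in Hoxd.

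In Hoxa, the gene cluster best known in blood progenitors, the ChIP summit lay at chromosome 6, 52211837, in a peak of 157 bp with a pileup of 8 fragments (95% Poisson interval 3.45 to 15.8) and a fold of 4.24 over the expected background. By q it ranked 12153 of 13166, where 1 is the strongest. The summit is inside the long annotated span of Hoxa3, a gene of pharyngeal and thymic development, and inside Hoxaas3, an antisense RNA gene. It lay 3.17 kb from Hoxa6 and 3.79 kb from Hoxa7, middle genes of the cluster, and 7.25 kb from Hoxa5. CUT&RUN had no summit in the cluster: its nearest to Hoxa3 was 57.0 kb away. Hoxa9 and Hoxa10, which are known for their part in progenitors and leukaemia, were 11.3 and 19.4 kb from the nearest ChIP summit and 111 and 119 kb from the nearest CUT&RUN summit.

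The CUT&RUN peak of Hoxd was the only peak inside a cluster with a pileup above its own list's median. At its summit (chromosome 2, 74749367) 32 fragments piled up (21.9 to 45.2), 17.5 times the expected background, for a rank of 5125 of 15891. It lay inside Haglr, a long non-coding RNA gene between Hoxd3 and Hoxd1, 0.945 kb from an end of that gene, and 1.10 kb beyond the 3′ end of Hoxd3. Of the 41 other RefSeq genes in the clusters and flanks, Haglr alone had a summit within 1 kb of an end in CUT&RUN, and 0 did in ChIP. For all protein-coding genes the shares were 27.3% and 23.1%. Only 2 of the 41 are protein-coding, and the share over all non-coding genes was not computed. Hoxd1, the anterior gene of the cluster, was 13.6 kb away and Hoxd4 20.2 kb. ChIP had no summit within 705 kb of any Hoxd gene.

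The Hoxb peak was weak. At its CUT&RUN summit (chromosome 11, 96235179) 10 fragments piled up (4.80 to 18.4), 7.47 times the expected background, and the rank was 15292 of 15891. It lay in the long interval between Hoxb13 and Hoxb9, 38.6 kb from Hoxb13 and 36.2 kb from Hoxb9, and outside every annotated gene. Hoxb4, a gene known from blood stem cells, was 120 kb from the nearest ChIP summit and 83.1 kb from the nearest CUT&RUN summit. The Hoxc cluster, home of the RNA gene Hotair, was empty in both lists, and its 9 genes were 39.5 to 137 kb from a ChIP summit and 140 to 220 kb from a CUT&RUN summit.

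The 50 kb flanks held a shared peak at only 1 place, beside Hoxa. There the ChIP summit at chromosome 6, 52111957 (pileup 14, 7.65 to 23.5, rank 4865) and the CUT&RUN summit at 52112050 (pileup 30, 20.2 to 42.8, rank 5956) lay 93 bp apart, inside the RNA gene Halr1. CUT&RUN had a second, weaker summit in Halr1 at 52110874, with a pileup of 14 and a rank of 14376. The remaining flank peak was a ChIP peak 39.5 kb from Hoxc13, with a pileup of 8 (3.45 to 15.8) and a rank of 11541, which no CUT&RUN peak overlapped. The flanks of Hoxb and Hoxd were empty in both lists. In all, the flanks held 2 summits of each list, or 5.00 per Mb in each.

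Beyond the flanks, the best ranked of the nearest peaks in either list lay beside Hoxb, 73.5 kb from Hoxb1 on chromosome 11. In ChIP, 47 fragments (34.5 to 62.5) covered the summit at 96441776, which placed it at rank 111 of 13166. In CUT&RUN, 68 fragments (52.8 to 86.2) covered the one at 96441760, at rank 1566 of 15891. The summits were 16 bp apart. The nearest protein-coding gene is not a Hox gene but Skap1, an adaptor of T cell receptor signalling, 22.8 kb away. On the other side of Hoxb the nearest ChIP and CUT&RUN summits stood 0.254 and 0.132 kb from Atp5g1, a subunit of ATP synthase, with pileups of 10 in ChIP and 54 in CUT&RUN. On the side of Hoxa towards higher coordinates, the nearest ChIP summit lay 0.078 kb from Tax1bp1. The CUT&RUN summit there lay inside Hibadh, 33.1 kb from an end. Beside Hoxc, the nearest ChIP summit towards higher coordinates lay inside Cbx5. The nearest CUT&RUN summits lay inside Calcoco1 on one side and 8.21 kb outside Smug1 on the other. Beside Hoxd, the nearest ChIP summits lay 0.058 kb from Atf2 and inside Gm50595, 18.6 kb from an end. In CUT&RUN the nearest summit on one side of Hoxd lay inside Atp5g3. The nearest CUT&RUN summit on the other side of Hoxd, 290 kb off, had a pileup of 17 (9.90 to 27.2) and lay 178 kb from Mtx2, its nearest protein-coding gene.

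**Figure D2:**
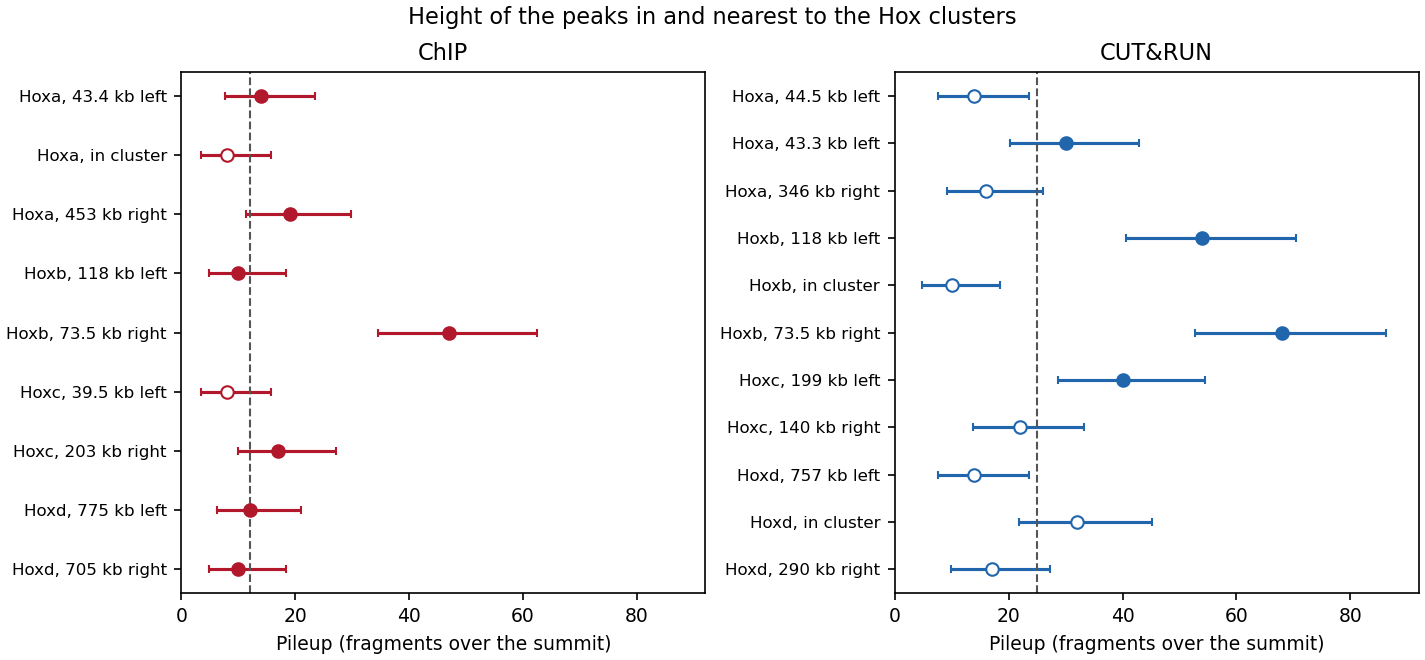
Pileup in fragments (x axis) of each peak inside a Hox cluster or its flanks and of the nearest peak on each side, with exact 95% Poisson intervals, for ChIP and CUT&RUN. Left means towards lower coordinates, filled points overlap a peak of the other list, and the dashed line is the list's median pileup of 12 in ChIP and 25 in CUT&RUN. The 3 peaks inside clusters have open points, and the highest points, at 47 and 68, lie 73.5 kb outside Hoxb.

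Of the 4 clusters, Hoxd lay in the longest stretch without ChIP summits. It ran for 1.58 Mb around the 9 Hoxd genes, from chromosome 2, 73892735 to 75470597, and held 13 protein-coding genes in all. Of the 13058 intervals between neighbouring ChIP summits, 350 (2.68%) were as long, and they took up 39.7% of the length of all intervals and held 16.1% of protein-coding genes. The other clusters lay in shorter intervals, of 0.366 Mb for Hoxb and 0.358 Mb for Hoxc, and for Hoxa of 99.9 and 502 kb on either side of its summit. In CUT&RUN the interval with the 11 Hoxa genes was 0.495 Mb and that with the 9 Hoxc genes 0.455 Mb. The Hoxb peak divided its region into 0.159 Mb with Hoxb13 and 0.207 Mb with the other 9 Hoxb genes. The Hoxd peak divided its region into 0.838 Mb with 8 Hoxd genes and 0.306 Mb with Hoxd1.

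Hox genes had a median distance of 109 kb in ChIP, against 28.1 kb for all protein-coding genes, and of 77.6 kb in CUT&RUN, against 20.3 kb. Of all protein-coding genes, 29.2% were as far from a ChIP summit as the Hox median and 31.7% as far from a CUT&RUN summit. Hoxa was nearest in ChIP (1.23 to 47.0 kb, median 19.4 kb) and Hoxd farthest (705 to 784 kb, median 770 kb). In CUT&RUN Hoxd was nearest (1.10 to 77.8 kb, median 49.2 kb) and Hoxc farthest (140 to 220 kb, median 193 kb). Thus the order of the clusters was not the same in the assays, and the lowest values of Hoxa in ChIP and of Hoxd in CUT&RUN each come from 1 peak that the other list lacks. By position along the clusters, groups 1 to 4 (anterior) had medians of 90.8 kb in ChIP and 64.5 kb in CUT&RUN, groups 5 to 9 of 132 and 89.7 kb, and groups 10 to 13 (posterior) of 79.1 and 125 kb.

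**Figure D3:**
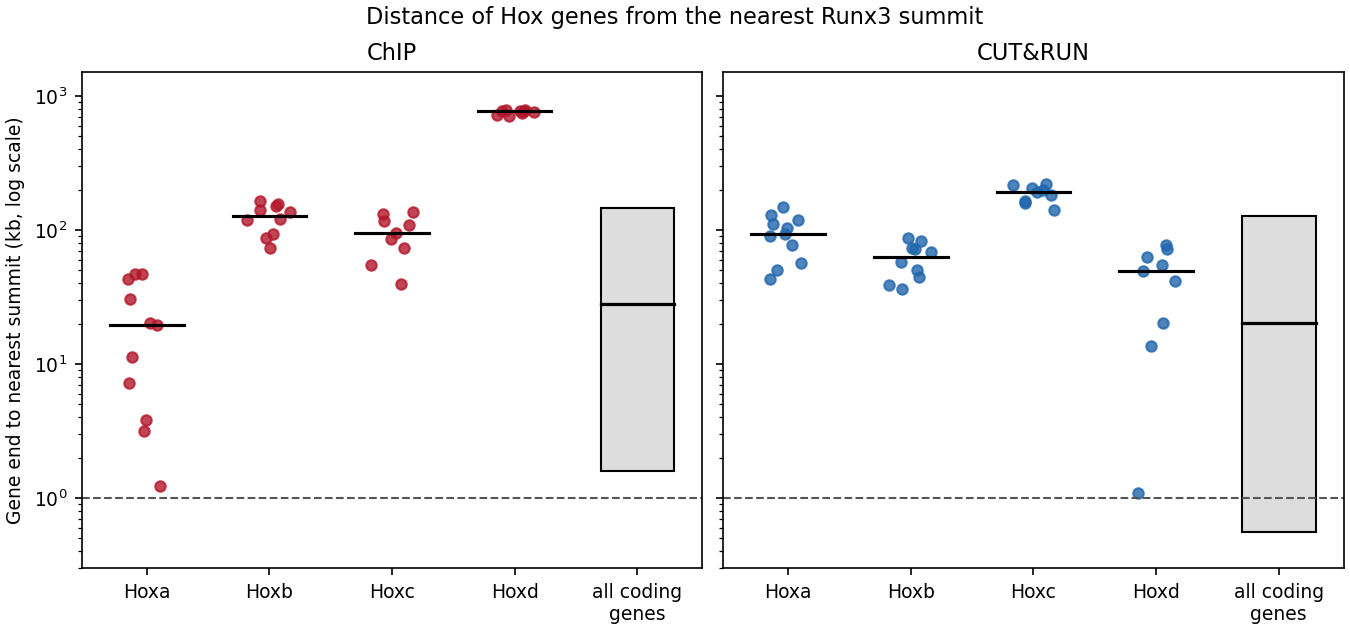
Distance in kb (log scale) from an end of each Hox gene to the nearest ChIP or CUT&RUN summit, by cluster, with the cluster's median as a line. The box shows the quartiles and median of all 21779 protein-coding genes, and the dashed line is 1 kb. No Hox gene lies below the dashed line, and the Hoxd genes stand at 705 to 784 kb in ChIP.

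The promoter letters of Hox genes were read from RefSeq windows of GRCm38.p6 that run from 250 bases before to 50 after a gene's start. Windows were found for 22 of the 39 Hox genes, 24 windows in all, and 0 of the 24 held a summit in either list, against 13.9% and 19.8% of 21263 windows of protein-coding genes. Most are of Hoxa and Hoxd: of Hoxb only Hoxb1, Hoxb4 and Hoxb8 had a window, and of Hoxc only Hoxc4. Hox promoters had a median GC content of 57.7% (39.7 to 81.0%), against 56.3% for all windows, and a median ratio of observed to expected CpG of 0.626 (0.257 to 1.02), against 0.567. The letters TGTGGT or TGCGGT, searched on both strands, occurred in 3 of the 24 Hox windows (12.5%), against 21.6% of all windows and 40.0% of the 2111 windows with summits of both lists. TGTGGT alone was in 1 Hox window, of Hoxd10 (4.17%, against 15.0% of all), and TGCGGT in 2, of Hoxd3 and Hoxd1 (8.33%, against 7.44%). These counts are small, all from Hoxd, and no interval was computed, so Hox promoters were not shown to hold fewer motifs. The motifs do not overlap each other, and a match is only a run of letters, not a site.

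The following windows show these letters, with both motifs, on either strand, in capitals. Hoxa3 is shown because its upstream start is the gene start nearest to the ChIP summit of the Hoxa cluster, and Hoxd10 and Hoxd1 because they hold a motif without a summit. They are set beside Pou2f2, a homeobox gene of lymphocytes, and Ezh1, a Polycomb methyltransferase, whose windows held a motif and a summit of each list.
Hoxa3 (chr6:52213018-52213317, minus strand): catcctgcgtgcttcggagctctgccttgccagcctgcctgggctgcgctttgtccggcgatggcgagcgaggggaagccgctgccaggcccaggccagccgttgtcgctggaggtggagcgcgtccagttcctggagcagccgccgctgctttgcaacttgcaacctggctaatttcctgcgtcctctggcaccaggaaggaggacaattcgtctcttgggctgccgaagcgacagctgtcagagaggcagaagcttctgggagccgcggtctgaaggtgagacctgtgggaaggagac
Hoxd10 (chr2:74691641-74691940, plus strand): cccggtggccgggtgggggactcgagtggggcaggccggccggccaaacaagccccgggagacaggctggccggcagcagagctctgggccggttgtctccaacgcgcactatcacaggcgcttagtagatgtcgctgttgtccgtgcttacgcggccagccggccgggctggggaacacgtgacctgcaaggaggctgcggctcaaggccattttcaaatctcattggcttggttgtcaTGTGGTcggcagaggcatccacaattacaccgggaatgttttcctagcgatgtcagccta
Hoxd1 (chr2:74762730-74763029, plus strand): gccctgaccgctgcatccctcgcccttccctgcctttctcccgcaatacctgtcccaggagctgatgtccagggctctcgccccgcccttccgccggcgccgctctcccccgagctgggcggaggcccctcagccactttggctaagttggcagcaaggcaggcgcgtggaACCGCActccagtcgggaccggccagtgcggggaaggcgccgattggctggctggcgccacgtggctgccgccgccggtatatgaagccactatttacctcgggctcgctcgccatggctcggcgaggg
Pou2f2 (chr7:25132411-25132710, minus strand): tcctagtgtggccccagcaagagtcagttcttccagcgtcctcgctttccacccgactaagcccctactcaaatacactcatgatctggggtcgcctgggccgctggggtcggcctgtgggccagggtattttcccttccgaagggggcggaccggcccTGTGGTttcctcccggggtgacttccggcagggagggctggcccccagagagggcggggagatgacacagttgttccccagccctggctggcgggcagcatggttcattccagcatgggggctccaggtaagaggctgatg
Ezh1 (chr11:101226414-101226713, minus strand): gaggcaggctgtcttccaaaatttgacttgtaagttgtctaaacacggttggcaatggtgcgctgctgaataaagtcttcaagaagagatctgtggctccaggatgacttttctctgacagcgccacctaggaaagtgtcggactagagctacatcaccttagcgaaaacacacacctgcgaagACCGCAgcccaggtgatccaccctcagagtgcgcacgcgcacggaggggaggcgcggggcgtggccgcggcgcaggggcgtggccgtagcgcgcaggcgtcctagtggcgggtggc

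In the Pou2f2 window the motif TGTGGT begins at base 160 counted from the window's 5′ end, and the summits fell at base 128 in ChIP (pileup 13) and base 174 in CUT&RUN (pileup 16). In the Ezh1 window the reverse complement of TGCGGT begins at base 185, and the summits fell at base 196 in ChIP (pileup 14) and base 186 in CUT&RUN (pileup 18). The Hoxd10 and Hoxd1 windows carry the same letters, at base 241 and, in reverse complement, at base 172. The ends of these genes were 775 kb (Hoxd10) and 705 kb (Hoxd1) from a ChIP summit and 54.3 and 13.6 kb from a CUT&RUN summit.

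The clusters also carry 6 miRNA genes. None had a summit within 1 kb, but the genes are few, and the share over all miRNA genes was not computed. The miRNA genes show how alike the clusters are, since genes of different clusters make miRNAs with the same seed (bases 2 to 8, in capitals). The miR-10 genes stand beside Hoxb4 and Hoxd4, and the miR-196 genes beside Hoxa9, Hoxb9 and Hoxc9 or Hoxc10.
mmu-miR-10a-5p (Hoxb): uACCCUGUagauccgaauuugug
mmu-miR-10b-5p (Hoxd): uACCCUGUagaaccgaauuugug
mmu-miR-196a-5p (Hoxb and Hoxc): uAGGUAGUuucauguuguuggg
mmu-miR-196b-5p (Hoxa): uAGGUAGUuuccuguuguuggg

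Mir10a was 125 kb from a ChIP and 82.0 kb from a CUT&RUN summit, and Mir10b 744 and 23.2 kb. Mir196b was 18.2 and 118 kb away, Mir196a-1 of Hoxb 177 and 30.0 kb, and Mir196a-2 of Hoxc 91.8 and 204 kb. The remaining gene, Mir615 of Hoxc, was 133 and 162 kb away. Among the long RNA genes, Hotair of Hoxc was 62.5 kb from a ChIP and 222 kb from a CUT&RUN summit, Hottip beside Hoxa13 50.9 and 151 kb, and Hotairm1 of Hoxa 46.6 and 46.5 kb.

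Among 48 homeobox genes of development, such as the Dlx, Irx, Lhx and Nkx genes, 0 had a ChIP and 0 a CUT&RUN summit within 1 kb of an end, which allows a share of up to 6.25%, against 23.1% and 27.3% of all protein-coding genes. Within 10 kb, 2 and 4 of the 48 had one, against 40.4% and 45.3%. Gsx2, a gene of forebrain patterning, had a shared peak 8.82 kb away, with pileups of 12 in ChIP (6.20 to 21.0) and 15 in CUT&RUN (8.4 to 24.7). Within 10 kb, Barhl1 had a peak in ChIP alone, and Dlx1, Irx5 and Lhx1 in CUT&RUN alone.

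Among 18 homeobox genes known in blood cells, 7 had a ChIP and 9 a CUT&RUN summit within 1 kb of an end (38.9%, 17.3 to 64.3%, and 50.0%, 26.0 to 74.0%), against 23.1% and 27.3% of all protein-coding genes, shares that both intervals include. A summit of both lists stood at 6 of the 18, against 18.4% of all protein-coding genes: Adnp, Pou2f2, Satb1, Hmbox1, Zhx2 and Cux1. No interval was computed for this count. Adnp, a chromatin protein, had the best ranked ChIP peak, with a pileup of 46 (33.7 to 61.4, rank 125) in ChIP and 63 (48.4 to 80.6, rank 1492) in CUT&RUN. Satb1, a genome organizer of T cells, had 8 peaks in each list within 10 kb, the best with pileups of 22 (13.8 to 33.3) and 52 (38.8 to 68.2). Pou2f2 had 8 ChIP and 5 CUT&RUN peaks, the best with 31 (21.1 to 44.0) and 99 (80.5 to 121). Its best peaks lay at different places, with summits at 25133262 in ChIP and 25155901 in CUT&RUN. The others among the best ranked were Tgif1, with pileups of 37 and 69, Zfhx3, with 27 and 77, and Zeb1, with 23 and 51. The best peaks of Zfhx3 also lay at different places, with summits at 108887353 in ChIP and 108866515 in CUT&RUN.

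The TALE proteins, which bind DNA with Hox proteins as cofactors, had a summit within 1 kb of an end at 1 of 9 genes in ChIP (11.1%, 0.281 to 48.2%) and 2 of 9 in CUT&RUN (22.2%, 2.81 to 60.0%), near the 23.1% and 27.3% of all protein-coding genes. Pknox1 was the gene with a summit within 1 kb of an end in both lists, at 0.015 kb in ChIP and 0.095 kb in CUT&RUN. Pbx4 had a CUT&RUN summit at 0.032 kb and none in ChIP within 23.2 kb. Pbx2 had its nearest summits at 2.52 kb in ChIP and 6.48 kb in CUT&RUN, Meis3 had a CUT&RUN summit at 7.42 kb, and Pbx3, Meis1, Meis2 and Pknox2 had none within 10 kb in either list.

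Genes of the machinery that acts on Hox clusters had summits of their own. Of 24 Polycomb and Trithorax regulators, 9 had a ChIP and 15 a CUT&RUN summit within 1 kb of an end (37.5%, 18.8 to 59.4%, and 62.5%, 40.6 to 81.2%), against 23.1% and 27.3% of all protein-coding genes. The ChIP interval includes the share of all genes. A summit of both lists stood at 7 of the 24, against 18.4% of all protein-coding genes. No interval was computed for this count, so an excess was not shown. The counts by complex that follow are of few genes and have the same background. Ctcf was listed among the 24 but is in none of the groups that follow. It had a CUT&RUN summit 0.028 kb from an end, and its nearest ChIP summit was 13.2 kb away. The 5 genes of PRC2, the complex that methylates histone H3 in Polycomb silencing, had 4 in ChIP and 5 in CUT&RUN: Ezh1, Ezh2, Eed and Jarid2 in both, and Suz12 in CUT&RUN. Eed had a pileup of 23 (14.6 to 34.5) in ChIP and 21 (13 to 32.1) in CUT&RUN. At Ezh2 the best ranked peaks were weak, with pileups of 8 (3.45 to 15.8) and 15 (8.4 to 24.7), and this ChIP peak overlapped no CUT&RUN peak. The best ChIP peak of Jarid2 had a pileup of 65 over an expected background of 11.7 fragments, against 2.12 at the list's median, the cause of which was not tested.

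The 11 genes of PRC1, which compacts Polycomb chromatin, had 1 ChIP summit at an end (Phc1) and 5 in CUT&RUN (Rnf2, Phc2, Pcgf2, Cbx2 and Cbx8), with 0 genes in both, and Bmi1 and Pcgf1 had no peak within 10 kb. The best ranked peaks of Phc1 within 10 kb had pileups of 23 (14.6 to 34.5) in ChIP and 97 (78.7 to 118) in CUT&RUN. Their summits, at 122308935 and 122308921, lay outside the gene, which starts at 122317731. The ChIP summit counted at an end of Phc1, 0.532 kb from it, was a different peak. In CUT&RUN the summit nearest to Phc1 was 8.81 kb from an end. Cbx7 had pileups of 28 (18.6 to 40.5) and 74 (58.1 to 92.9). Cbx2 and Cbx8 are neighbours and shared their best peak in each list. The 7 genes of activating proteins had 4 in each list, with Kmt2a, Kmt2b and Psip1 in both. Kmt2a, which keeps Hoxa9 active in progenitors, had summits 0.054 and 0.066 kb from an end, with pileups of 13 (6.92 to 22.2) and 28 (18.6 to 40.5). Dot1l, a histone methyltransferase, had pileups of 28 (18.6 to 40.5) and 46 (33.7 to 61.4) at its best peaks. These lay at different places, with summits at 80798233 in ChIP and 80763631 in CUT&RUN.

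**Figure D4:**
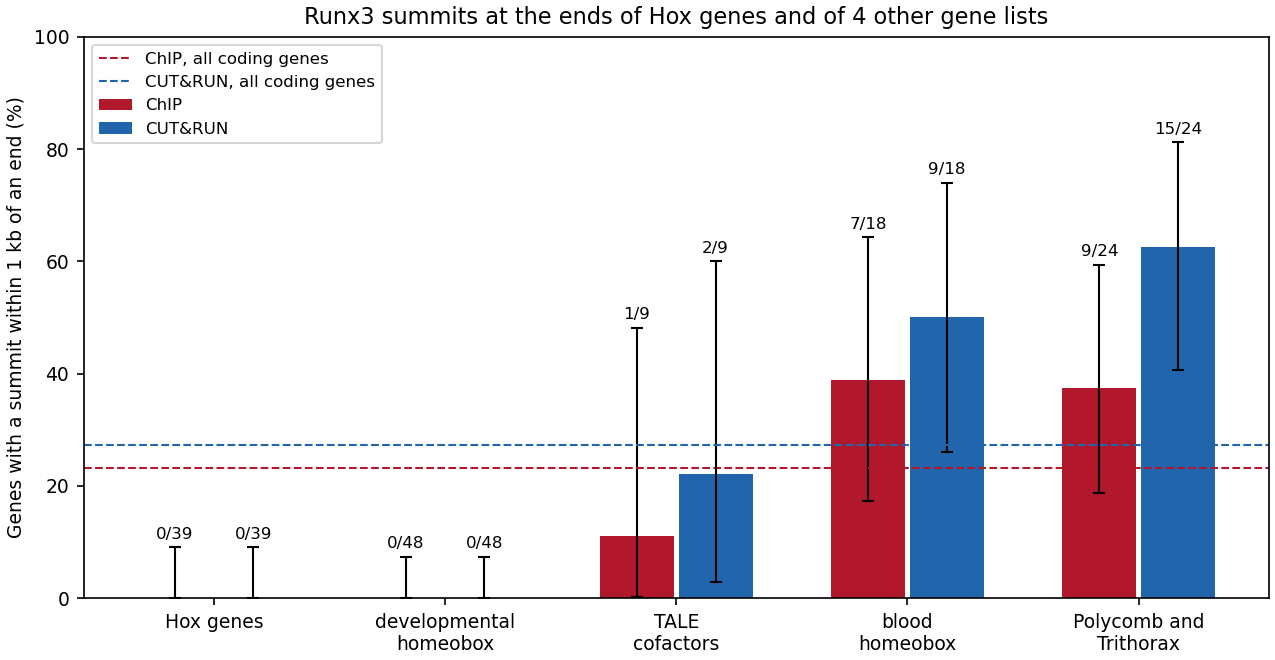
Share of genes (%) with a summit within 1 kb of an end in ChIP (red) and CUT&RUN (blue), with exact 95% Clopper-Pearson intervals and counts, for Hox genes and the other lists. Dashed lines show all protein-coding genes, at 23.1% in ChIP and 27.3% in CUT&RUN. Hox genes and developmental homeobox genes have 0 of 39 and 0 of 48 in each assay.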

How the data were processed

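The submitters' processing notes name Bowtie, MACS2 and mm10. Per the file headers, MACS2 2.1.1.20160309 kept at most 1 fragment per position, with a q cutoff of 0.05 and the whole cell extract as control for ChIP, and with 1e-05 and no control for CUT&RUN, on an alignment named for nucleosome-free fragments. Duplicate removal took 80.3% of ChIP and 21.4% of CUT&RUN fragments, per the file headers. The deposited lists give the pileup, a coverage signal at the summit, the fold enrichment, a ratio to the expected background, and −log10 p-values and q-values, taken unchanged from the authors' caller. Heights were used within a list only.

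Computed here with Python 3.11.15, pandas 2.3.3, numpy 2.4.6 and scipy 1.17.1 were distances from abs_summit to gene ends, counts in clusters, flanks and 100 kb bins, overlaps of at least 1 bp, and ranks by q, then pileup, then peak number. The expected background is the pileup plus 1 over the fold. Genes came from RefSeq, GRCm38.p6, and 108 protein-coding rows that start below 3 Mb on chromosomes other than Y were left out, since they carry scaffold positions. The counting was tested on simulated peaks. Intervals cover counting error only, since PCR fragments are not independent molecules. With 1 library per assay no test was run. The genes, lists and limits were chosen with earlier results of these data known, and the count of 5 genes per bin after these data were seen. Values of some single genes are not reported here. Named are Hox genes near a summit, every cluster and flank peak, the nearest outside peaks and up to 6 best ranked genes with a peak within 10 kb from each list of cofactors, regulators and homeobox genes, besides those counted at a gene end.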

Additional observations from a re-analysis of the deposited data

How the results depend on the processing

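No paired analysis was possible because each assay has 1 library and no result comes from a test. Of 44 alternatives, 22 left a count within 1.5 times its value, among them every alternative for Hox genes at 1 kb from an end that used stricter q, the better ranked 50% of each list, whole peak intervals or 0.5 kb. Stricter q, the better ranked 50% and 0.5 kb can only remove summits, so a count of 0 could not change under them. At 2.5 kb from an end the Hox genes counted were 1 in ChIP and 1 in CUT&RUN, and at 10 kb 4 and 1. Counting gene spans too, chosen after seeing the data, gave 1 in ChIP and 0 in CUT&RUN. Summits in the clusters numbered 0 in ChIP and 1 in CUT&RUN with stricter q (−log10 q of at least 5 and 10), and 0 and 1 in the better ranked 50%. Summits in the flanks numbered 1 in ChIP with stricter q, and 1 in ChIP and 1 in CUT&RUN in the better ranked 50%. With flanks of 25 kb there were 0 and 0, and with 100 kb 5 and 5. Peaks that overlapped the other list numbered 1 and 1, but 0 and 0 with 25 kb, 3 and 3 with 100 kb, and 0 and 0 when summits had to lie within 50 bp. These counts are small, so a change of 1 peak moves them. The depth limits what absence means: peaks under pileups of 7 in ChIP and 8 in CUT&RUN were not listed.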

Other observations

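Of the 1043 bins of 100 kb with at least 5 protein-coding genes, 222 had no summit of either list. By symbol prefix, the commonest genes in 89 of them were olfactory receptors (Olfr), in 20 genes with the prefix Gm, and in 5 keratin-associated genes (Krtap). In another 5 they were Rhox genes, a homeobox cluster of the X chromosome active in the reproductive tract. Families with several prefixes were split, such as protocadherins (Pcdha 3 bins, Pcdhb 3, Pcdhga 1) and defensins (Defb 4, Defa 3). Some bins counted under Gm also held Krtap genes. A further 3 held Hox genes, 1 each of Hoxb, Hoxc and Hoxd, and many other families also had 1 such bin. How many of the 1043 bins belong to each family was not counted. These families were named after the values were seen. The stretch between neighbouring summits with the most protein-coding genes lay on chromosome 2, with 229 genes over 5.45 Mb in ChIP and 226 over 5.35 Mb in CUT&RUN, of which 222 and 221 were olfactory receptor genes. The interval around Hoxd in ChIP, with 13 protein-coding genes, was among 162 intervals with at least that many.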
